A study of Mus musculus with 8 samples.

Results

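Under constant light, the livers of mice that had breathed fine particulate matter (PM2.5), the group LL-PM2.5, were compared by RNA-seq with the livers of mice that had breathed filtered air (LL-FA). It rests on 4 of the 8 RNA-seq libraries of the study, 2 in each group, and the other 4 come from mice in a light/dark cycle, 2 in filtered air (LD-FA) and 2 in PM2.5 (LD-PM2.5). All mice were wild-type C57BL/6 and were exposed for 30 weeks, and the whole liver was the tissue sequenced, so both groups compared here share the constant light and differ in the air. Age, sex, the time of day at which livers were taken, and the composition and dose of the particles were not stated in the labels or files used here. Whether the 2 libraries of a group are 2 mice is also not stated, and the p-values then cover no more than the spread of these samples, which may be technical. In bulk tissue, fewer cells of a type and less RNA per cell cannot be told apart. The genes compared were the 11316 with a usable estimate in all 8 libraries and at least 1 FPKM (fragments divided by transcript length and library depth) in at least 2 of them.

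The circadian clock of a liver cell is a feedback loop. ARNTL (also called BMAL1), paired with CLOCK or NPAS2, binds E-box sequences and switches on the Per, Cry and Nr1d genes and Dbp, whose RNA levels peak at about the same part of the cycle. The PER and CRY proteins then block ARNTL, and the NR1D proteins (REV-ERB) repress Arntl and Npas2, so that these peak at the opposite time. Many genes of sterol, glucose, heme and amino acid metabolism follow the loop, and light is the main signal that sets the central clock. PM2.5 reaches the deep lung, and its effects on the liver have been studied for glucose and lipid metabolism and inflammation.

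The 2 LL-FA libraries held 25950205 and 22719024 estimated fragments, and those of LL-PM2.5 held 29758209 and 25831816. The standard error (SE) of a log2 fold change between the groups had a median of 0.187 over genes, and the median log2 fold change over all genes was 0.003, with 5% of genes below -0.481 and 5% above 0.431. LL-FA replicate 1 and LL-PM2.5 replicate 2 stood apart in transcripts of other tissues. The 13 skeletal muscle markers summed to 806.9 FPKM in LL-FA replicate 1 and to between 1.957 and 3.074 in the other 3 libraries, and the 13 pancreatic acinar markers to 427.4 FPKM in LL-PM2.5 replicate 2 against 18.15 to 27.39. Hepatocyte markers summed to between 31050 and 40720 FPKM in the 4 libraries. Values with 1 or both of these libraries left out are given for many of the lists below.

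No gene passed an adjusted p of 0.05 in edgeR's quasi-likelihood test (0% of 11316, smallest adjusted p 0.113). An unadjusted p under 0.05 was reached by 547 genes (4.83%), of which 240 were higher in LL-PM2.5 (2.12%) and 307 lower (2.71%), where 5% of the genes tested would be 566. DESeq2, which estimates the spread differently, called 58 genes, 31 higher and 27 lower, 7 of them markers of pancreas, muscle or fat. The groups did not overlap in FPKM, meaning both libraries of one lay beyond both of the other, for 2404 genes (21.2%), 1092 higher (9.65%) and 1312 lower (11.6%). The values below are therefore levels and differences that did not pass the test across all genes, and 35 of the 118 genes given with values are among the DESeq2 calls. Counts of list members at an unadjusted p under 0.05 are to be read beside the 2.12% higher and 2.71% lower over all genes. Counts of positive members are to be read beside 50.7% over all genes. In each sentence on a gene, FPKM values are given for LL-FA replicates 1 and 2 and then for LL-PM2.5 replicates 1 and 2, and a log2 fold change is LL-PM2.5 over LL-FA ± SE from edgeR.

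**Figure D1:**
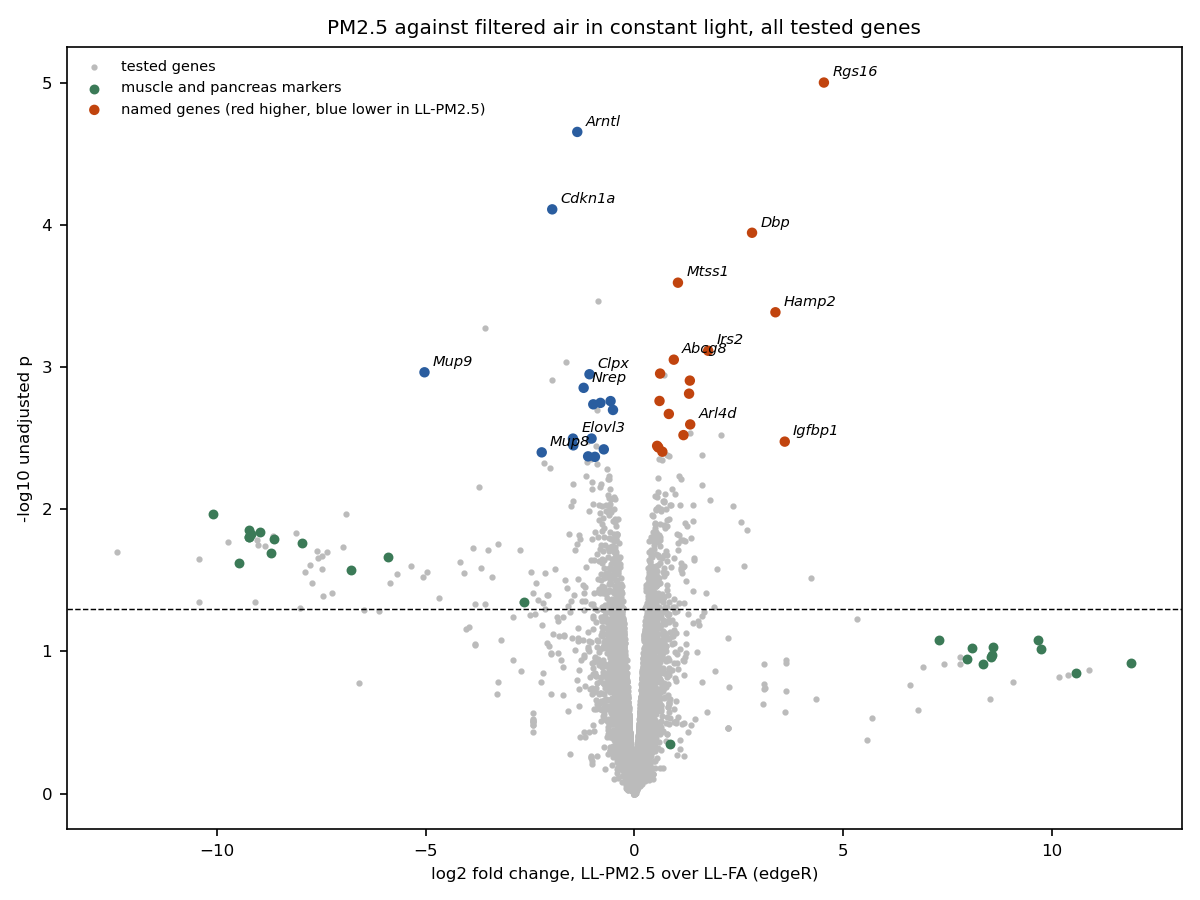
Each point is 1 of 11316 genes, with the log2 fold change of LL-PM2.5 over LL-FA on the x axis and the -log10 of the unadjusted edgeR p on the y axis, and the dashed line marks the unadjusted level of 0.05. Rgs16, Arntl, Cdkn1a and Dbp have the smallest p among the named genes, while muscle markers lie far left and pancreas markers far right at larger p.

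The clock genes that E-boxes drive stood higher in LL-PM2.5 and those of the opposite phase lower. All lists here were chosen with earlier results of these data known, so their counts describe the members and are no independent support. The first clock list had 13 members, of which 12 were tested. Of these, 11 had a positive log2 fold change (50.7% of all tested genes did), 3 had an unadjusted p under 0.05 in that direction (2.12% of all genes) and 9 had groups that did not overlap upward (9.65%). The median log2 fold change of the list was 0.816, beside 0.003 over all genes, and 0.823 without LL-FA replicate 1 and LL-PM2.5 replicate 2, where 1 member in place of 3 had an unadjusted p under 0.05. The promoters of several members hold the E-box, and 1 stretch of 30 bases is shown for each because it is the site class that ARNTL binds, with the motif in capitals.
Ciart: cgtgcagaaccgCACGTGtctgggaggggg
Per1: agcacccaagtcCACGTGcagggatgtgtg
Tef: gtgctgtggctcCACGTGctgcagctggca
Cry1: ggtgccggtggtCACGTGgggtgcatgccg
These lie at chr3:95882255-95882284 on the minus strand (Ciart), chr11:69098771-69098800 on the plus strand (Per1), chr15:81802534-81802563 on the plus strand (Tef) and chr10:85185097-85185126 on the minus strand (Cry1), in RefSeq promoters of GRCm38.p6. A promoter here runs from 250 bases before to 50 after the start of the gene. The letters CACGTG, which read the same on both strands, were found in the promoters of 4 of the 10 members that have one in the table, and in 12.1% of the 8296 tested genes with a promoter.

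Dbp encodes a PAR bZIP transcription factor that carries the clock's phase to D-box sequences in its targets. Its levels were 3.86 and 9.08 FPKM in LL-FA against 32.9 and 54.0 FPKM in LL-PM2.5. The lower of the exposed libraries was above the higher of the controls, and the fold change was 7.05 (log2 2.82 ± 0.38, edgeR adjusted p = 0.322). Tef, the gene of a second PAR bZIP factor, had 14.8 and 16.3 FPKM against 30.4 and 24.4 (log2 0.81 ± 0.40), again without overlap.

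The NR1D nuclear receptors repress Arntl. Nr1d2 had 11.7 and 10.8 FPKM in LL-FA against 19.2 and 16.3 in LL-PM2.5 (log2 0.67 ± 0.17, unadjusted p = 0.00451). Nr1d1 stood at 15.1 and 12.2 against 37.8 and 39.8 FPKM, and with the large spread among the light/dark libraries its SE was 0.80 on a log2 difference of 1.5. Both genes were thus higher in each exposed library than in each control library.

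Among the repressors that close the loop, Ciart, which encodes a protein that inhibits the ARNTL complex, had 0.366 and 0.320 FPKM against 0.968 and 1.75 (log2 1.91 ± 0.81, unadjusted p = 0.0491). Per3 stood at 0.456 and 0.464 FPKM against 1.16 and 1.52 (log2 1.53 ± 0.69). Per1 had 1.53 and 1.21 FPKM against 3.37 and 2.03, and Per2 1.23 and 1.08 against 1.86 and 2.23. None of these 4 genes overlapped between the groups, although only Ciart had an unadjusted p under 0.05. Cry1 was the exception in the list, at 5.09 and 3.50 FPKM in LL-FA against 2.90 and 2.71 in LL-PM2.5 (log2 -0.59 ± 0.66). It peaks later than the Per genes and is also a member of the opposite-phase list.

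The 7 opposite-phase genes were all tested, and 6 had a negative log2 fold change, with a median of -0.386. Of the 7, 2 had an unadjusted p under 0.05 in that direction (2.71% of all genes), and 5 had groups that did not overlap downward (11.6%). Without LL-FA replicate 1 and LL-PM2.5 replicate 2 the median was -0.197 and 1 member had an unadjusted p under 0.05. Arntl, the core activator, had 6.10 and 4.88 FPKM in LL-FA against 2.09 and 2.04 in LL-PM2.5. Both exposed libraries lay far below both controls, at log2 -1.37 ± 0.15 (edgeR adjusted p = 0.126), and between -1.25 and -1.49 with any 1 of the 4 libraries left out. Npas2, the alternative partner of ARNTL, stood at 0.544 and 0.469 FPKM against 0.113 and 0.0357 (log2 -2.74 ± 0.92, unadjusted p = 0.0195). Nfil3, which encodes a bZIP factor that competes with DBP at D-boxes, had 12 and 12.6 FPKM against 11 and 9.34 (log2 -0.26 ± 0.17).

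The Arntl promoter holds the element that REV-ERB and ROR receptors share, and it is shown because the difference in Arntl was opposite in sign to those of Nr1d1 and Nr1d2. The D-box of Per3 is the binding sequence of DBP and TEF, and both motifs are in capitals.
Arntl: agggaaggcagaAAGTAGGTCAgggacgga
Per3: ccgacccgcgcgTTATGTAAggtactcggg
The first lies at chr7:113207526-113207555 on the plus strand and the second at chr4:151044853-151044882 on the minus strand (RefSeq, GRCm38.p6). On either strand, the REV-ERB and ROR element was found in 0.639% of the 8296 promoters of tested genes, and the D-box letters TTATGTAA in 0.687%. These matches describe the sequence, and binding was not measured.

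**Figure D2:**
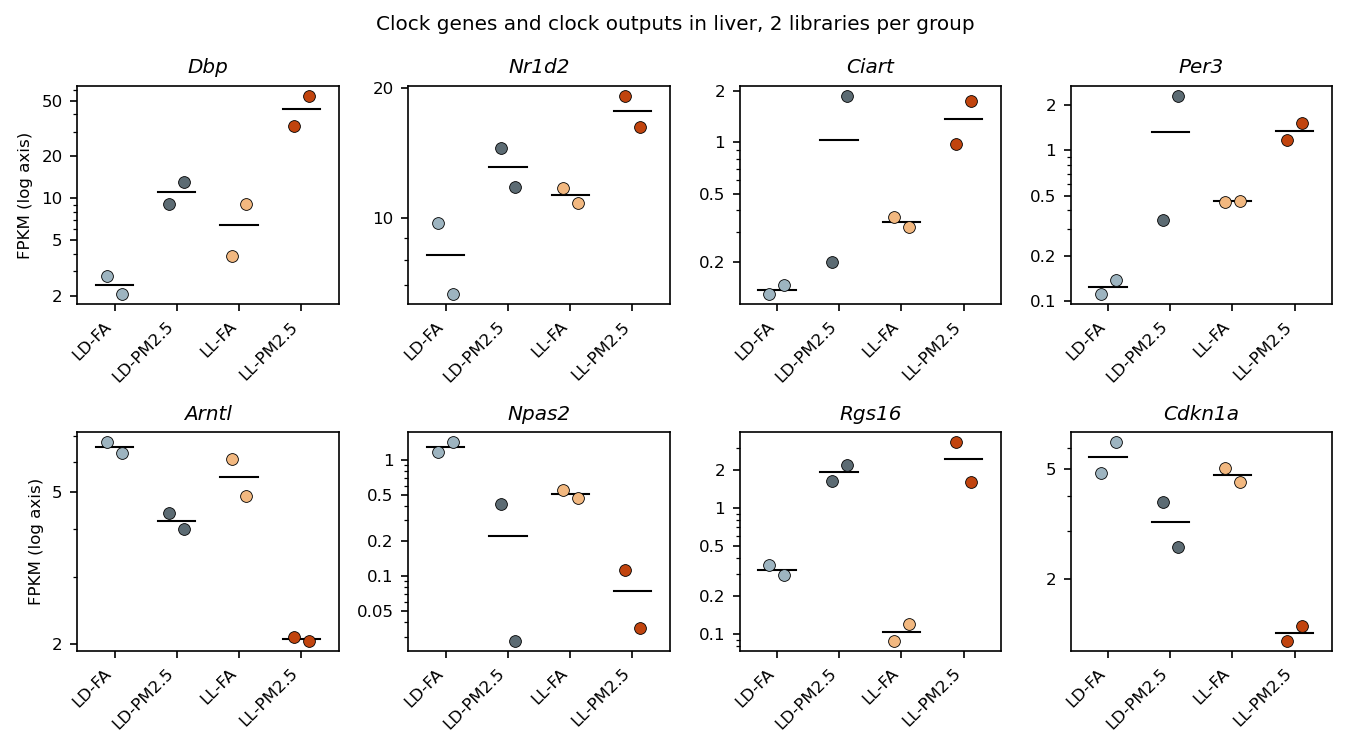
FPKM on log axes for 8 clock genes and clock outputs in the 4 groups, with 1 point per library and a bar at the group mean. In constant light all 8 genes separate the PM2.5 libraries from the filtered-air libraries, with Dbp, Nr1d2, Ciart, Per3 and Rgs16 higher and Arntl, Npas2 and Cdkn1a lower in PM2.5.

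Genes that oscillate in liver under clock control gave a mixed picture. Of 20 tested, 2 were higher and 6 lower at an unadjusted p under 0.05 (2.12% and 2.71% of all genes), and the median was -0.037. Rgs16, which encodes a regulator that ends signalling by G proteins and that in liver follows feeding time, had the smallest p of all genes. It stood at 0.0880 and 0.120 FPKM in LL-FA against 3.30 and 1.61 FPKM in LL-PM2.5, a 23.2-fold difference from a level near the detection limit (log2 4.54 ± 0.43, edgeR adjusted p = 0.113). Mtss1, which encodes a membrane-bending scaffold protein, differed by less but with very little spread, from 15.2 and 14.4 FPKM to 30.3 and 29.7 (log2 1.04 ± 0.16). The gene lies at chr15:58941234-59082005.

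On the lower side, Cdkn1a, the p21 inhibitor of the cell cycle and a target of NR1D1 repression, had 5.04 and 4.52 FPKM in LL-FA against 1.20 and 1.36 in LL-PM2.5 (log2 -1.97 ± 0.25, edgeR adjusted p = 0.294). Elovl3, which elongates very long chain fatty acids and is another gene that REV-ERB represses, stood at 485 and 454 FPKM against 212 and 131 (log2 -1.47 ± 0.34). Tubb2a, a beta tubulin, had 68.3 and 69.0 FPKM against 34.2 and 46.2, and Leo1, of the PAF1 transcription complex, 6.34 and 6.79 against 4.35 and 5.3. In each of these 4 genes both exposed libraries lay below both controls. Gadd45g, a stress-induced growth arrest gene, is different, since its 41.8 FPKM in LL-FA replicate 2 faced 3.59 in replicate 1 and 2.85 and 6.61 in LL-PM2.5. Its log2 difference was -2.10 with all libraries and 0.07 without LL-FA replicate 2.

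Sterol export stood higher and the enzyme that sets the kind of bile acid lower. ABCG5 and ABCG8 form a heterodimer that pumps cholesterol and plant sterols from hepatocytes into bile. Abcg5 had 15.3 and 14.9 FPKM in LL-FA against 33.3 and 41.7 in LL-PM2.5 (log2 1.33 ± 0.26), and Abcg8 16.1 and 15.8 against 28.6 and 31.3 (log2 0.94 ± 0.18, unadjusted p = 0.000889). The controls agreed closely and both exposed libraries were well above them. The genes lie head to head, and the sequence between their RefSeq start sites is shown because both were higher together, read on the Abcg8 strand.
Abcg5-Abcg8: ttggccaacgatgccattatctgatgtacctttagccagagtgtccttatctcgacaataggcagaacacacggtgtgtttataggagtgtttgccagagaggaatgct
This stretch of 109 bases lies at chr17:84683012-84683120 (GRCm38.p6) and holds none of the 3 motifs searched.

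Cyp8b1, the sterol 12-alpha-hydroxylase that directs synthesis to cholic acid, had 225 and 301 FPKM in LL-FA against 162 and 99.9 in LL-PM2.5 (log2 -1.02 ± 0.24, unadjusted p = 0.00319). Cyp7a1, the rate-limiting enzyme, stood at 42.6 and 21.6 FPKM against 54.2 and 23.6, with a spread within each group larger than the difference between them. Klb, the co-receptor through which the gut hormone FGF15 restrains bile acid synthesis, had 7.18 and 5.06 FPKM against 11.1 and 6.77 (log2 0.55 ± 0.24), and its groups overlapped. Over the 25 tested genes of bile acid synthesis and sterol export, 2 were higher and 1 lower at an unadjusted p under 0.05, with a median of -0.041. With LL-FA replicate 1 left out 6 were higher and 1 lower, and with LL-PM2.5 replicate 2 left out 18 of the 25 were positive and the median was 0.2. Of the 25 genes of cholesterol synthesis and uptake, none reached that p in edgeR (1 did, on the higher side, without LL-FA replicate 1), and their log2 fold changes ran from -0.413 to 0.611.

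Several genes of glucose production stood higher. Gluconeogenesis, glycolysis and glycogen genes numbered 21 tested. Of these, 5 were higher at an unadjusted p under 0.05 and 0 lower (2.12% and 2.71% of all genes), with a median of 0.091. G6pc, the phosphatase that releases glucose from the liver, had 70.7 and 42.8 FPKM in LL-FA against 218 and 84.5 in LL-PM2.5 (log2 1.41 ± 0.43). Pck1, the enzyme that commits carbon to gluconeogenesis, stood at 412 and 531 FPKM against 753 and 739 (log2 0.66 ± 0.23). Gckr, the regulatory protein of glucokinase, had 18.7 and 23.8 FPKM against 29.9 and 29.3. No group overlapped in these 3 genes. With LL-PM2.5 replicate 2 left out, 1 member was higher at that p in place of 5, and 2 when LL-FA replicate 1 was left out as well.

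Amino acid catabolism showed the same direction for most members, with 27 of 35 positive (50.7% of all genes) and a median of 0.146. At an unadjusted p under 0.05, 3 were higher and 1 lower (2.12% and 2.71% of all genes). Sds, Tat and Gpt belong to this list and to the gluconeogenesis list, so the counts of these lists are not independent. Sds, serine dehydratase, had 77.3 and 154 FPKM against 188 and 354 (log2 1.22 ± 0.40). Got1, an aspartate aminotransferase, stood at 62.7 and 79.7 against 112 and 161 FPKM, and Tat, which starts tyrosine breakdown, at 647 and 378 against 666 and 1220.3. These 3 levels were highest in LL-PM2.5 replicate 2. Without that library no member was higher at an unadjusted p under 0.05, the median was 0.029, and Tat stood at a log2 difference of 0.31 in place of 0.92. Csad, which makes the taurine precursor hypotaurine, was lower at 214 and 293 against 197 and 160 FPKM (log2 -0.52 ± 0.17).

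Klf15 encodes a zinc finger factor that drives amino acid catabolism and gluconeogenesis and is itself rhythmic. It stood at 47.0 and 51.7 FPKM in LL-FA against 72.9 and 78.5 in LL-PM2.5 (log2 0.62 ± 0.12, unadjusted p = 0.00111). Its RefSeq promoter holds 3 E-boxes, of which 1 is shown because Klf15 was the single gene with this motif among the 13 promoters of the 15 genes of smallest p on the higher side. That share, 7.69%, was below the 12.1% of tested genes with a promoter.
Klf15: tagaacccgtctCACGTGcgcatcggagga
It lies at chr6:90462392-90462421 on the plus strand (GRCm38.p6). A pair of amino acid carriers stood higher too. Slc38a3, which exchanges glutamine, had 384 and 431 FPKM against 574 and 717 (log2 0.67 ± 0.16), and Slc7a2, an arginine and lysine carrier, 58.3 and 52.6 against 89.7 and 101 (log2 0.83 ± 0.21).

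In insulin and IGF signalling, 4 of 18 tested genes were higher at an unadjusted p under 0.05 and 0 lower (2.12% and 2.71% of all genes). The median was 0.13. Irs2, the insulin receptor substrate that is induced in fasting, had 0.852 and 1.38 FPKM in LL-FA against 2.61 and 4.83 in LL-PM2.5 (log2 1.77 ± 0.32). Igfbp1, a secreted IGF-binding protein that insulin represses, stood at 2.37 and 3.23 against 9.55 and 56.1 FPKM (log2 3.6 ± 0.85), so the exposed libraries differed more from each other than the lower of them from the controls on a linear scale. Trib3, an inhibitor of AKT, had 1.83 and 1.98 FPKM against 3.90 and 4.08 (log2 1.07 ± 0.45). Without LL-PM2.5 replicate 2 the log2 differences were 1.22 for Irs2 and 1.72 for Igfbp1, and 2 members had an unadjusted p under 0.05.

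Lipid genes did not share a direction. Of 24 tested genes of fatty acid synthesis and lipid droplets, 2 were higher and 4 lower at an unadjusted p under 0.05, with a median of 0.076. The counts were 0 and 2 without LL-PM2.5 replicate 2, and 0 and 3 without LL-FA replicate 1. Scd1, the desaturase that makes oleate, had 1195 and 1199 FPKM in LL-FA against 2572 and 2757 in LL-PM2.5 (log2 1.19 ± 0.43), and Fads2, which desaturates polyunsaturated fatty acids, 141 and 130 against 161 and 184. Plin5, a coat protein that ties lipid droplets to mitochondria, stood lower at 25.6 and 32.1 against 18.0 and 17.0 FPKM (log2 -0.73 ± 0.18). Agpat2, of triglyceride synthesis, had 172 and 182 FPKM against 147 and 121.

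The droplet-fusion genes of the CIDE family were lower by more. Cidec stood at 17.6 and 7.45 FPKM against 3.34 and 2.78 (log2 -2.01 ± 0.51), and Cidea at 15.4 and 3.79 against 1.43 and 0.0802 (log2 -3.67 ± 1.32). Their highest level was in LL-FA replicate 1, the library with the muscle transcripts, in which the adipocyte marker Adipoq was also highest, at 6.94 FPKM against 0.026 to 0.351 in the other 3. Without that library the log2 differences were -1.17 for Cidec and -2.17 for Cidea. The part of fat tissue in these differences was not tested.

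Of 29 tested fatty acid oxidation and PPARa genes, 1 was higher and 1 lower at an unadjusted p under 0.05, with a median of -0.199. Without LL-PM2.5 replicate 2 the list had neither, and its median was 0.015. Cpt2, of the mitochondrial import of fatty acids, had 81.8 and 99.4 FPKM against 73.5 and 59.9 (log2 -0.40 ± 0.16), and Acot3, a peroxisomal thioesterase, 2.24 and 1.61 against 4.46 and 4.07 (log2 1.17 ± 0.42). Abcd2, the peroxisomal carrier of very long chain fatty acids, was higher at 1.85 and 0.539 against 3.93 and 4.87 FPKM (log2 2.07 ± 0.48, and 2.89 without LL-FA replicate 1). Nuclear genes of oxidative phosphorylation numbered 50 tested, of which 41 were negative by small amounts, with a median of -0.076 and 1 at an unadjusted p under 0.05. Without LL-FA replicate 1 the median was -0.203, and without LL-FA replicate 2 it was 0.081 with 34 positive.

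Iron, heme and hemoglobin transcripts included the next differences. Hamp2, a paralog of the gene of hepcidin, the hormone that lowers blood iron, had 2.73 and 5.42 FPKM in LL-FA against 19.4 and 60.8 in LL-PM2.5 (log2 3.38 ± 0.56, edgeR adjusted p = 0.667). Hamp itself stood at 1619 and 1656 against 2447 and 3157 FPKM, and with similar sequences and a level so much higher, fragments shared between the genes could enter the value of Hamp2. The log2 difference of Hamp2 was 2.39 without LL-PM2.5 replicate 2. Among the other iron genes, Slc11a2, an iron importer, was lower at 10.4 and 8.40 against 7.08 and 7.23 FPKM, Steap3, a ferrireductase, lower at 14.2 and 12.1 against 11.6 and 9.18, and Slc39a14, a zinc and iron importer, higher at 27.2 and 24.4 against 37.1 and 26.6. In all, 2 of 18 tested iron genes were higher and 2 lower at an unadjusted p under 0.05, and 1 and 0 without LL-FA replicate 1.

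Alas1 encodes the first and rate-limiting enzyme of heme synthesis in liver and is rhythmic. It had 70.4 and 164 FPKM in LL-FA against 62.0 and 30.2 in LL-PM2.5 (log2 -1.33 ± 0.42, unadjusted p = 0.0152), and -0.64 without LL-FA replicate 2. Blvrb, a biliverdin reductase, stood at 122 and 160 against 111 and 83.5 FPKM. Of 14 tested heme genes, 10 were negative and these 2 had an unadjusted p under 0.05, of which none remained under it without LL-PM2.5 replicate 2.

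The 4 adult globin genes, whose transcripts come from red blood cells, stood higher together. The 2 Hba genes are near-identical copies, as are the 2 Hbb genes, so the split of fragments within each pair is uncertain and the 4 values are not independent. Hba-a1 had 9.76 and 10.5 FPKM in LL-FA against 19.6 and 24.9 in LL-PM2.5 (log2 1.12 ± 0.30), Hba-a2 5.72 and 6.10 against 11.9 and 14.3, Hbb-bt 5.94 and 7.62 against 12.6 and 15.8, and Hbb-bs 38.6 and 49.4 against 90.8 and 94.2. Their log2 differences lay between 1.05 and 1.13, with no overlap between the groups. At an unadjusted p under 0.05 stood 4 of the 6 tested members of the red blood cell list, and 1 when either LL-FA replicate 1 or LL-PM2.5 replicate 2 was left out. The other tested genes of the red blood cell list, Alas2 and Fech, stood at -0.06 and 0.17. The amount of blood in the samples was not measured.

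**Figure D3:**
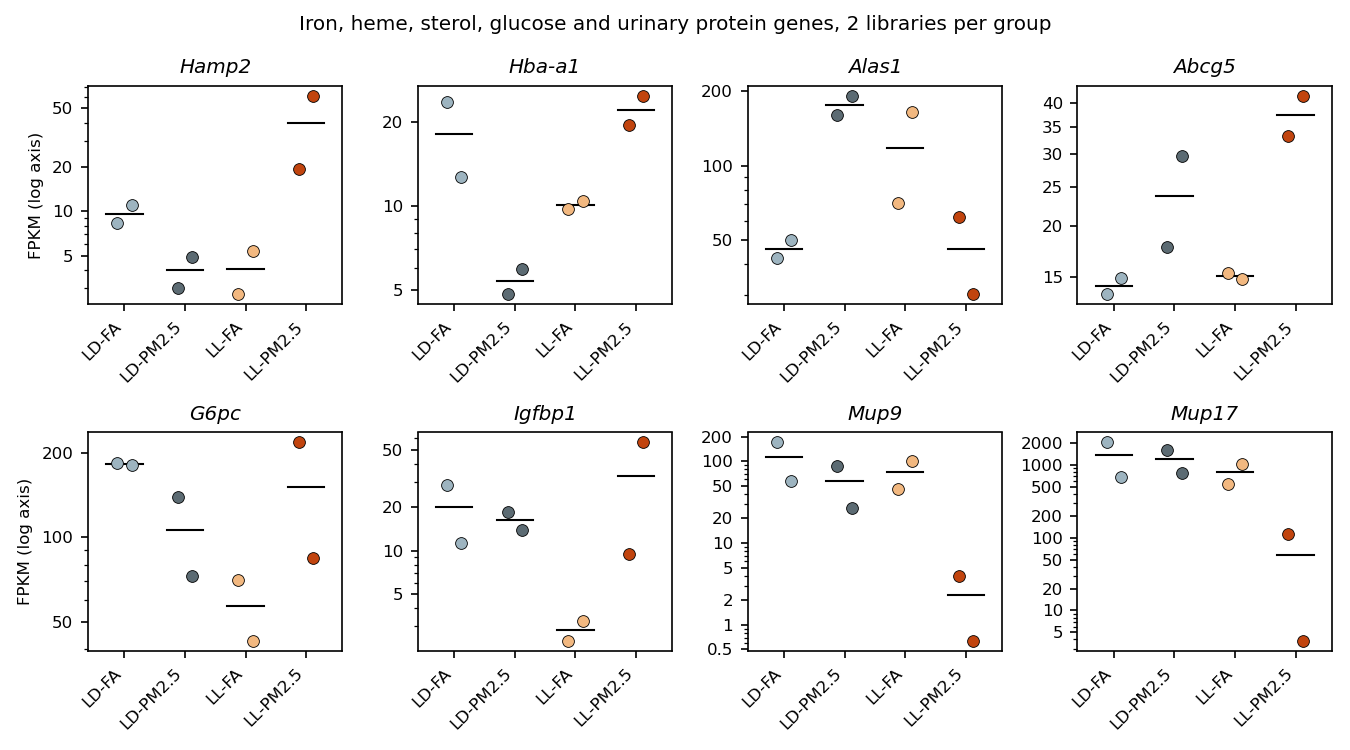
FPKM on log axes for 8 genes in the 4 groups, with 1 point per library and a bar at the group mean. In constant light Hamp2, Hba-a1, Abcg5, G6pc and Igfbp1 are higher and Alas1, Mup9 and Mup17 lower in both PM2.5 libraries, and Hamp2, Hba-a1, Alas1 and G6pc lie on the other side of filtered air in the light/dark cycle.

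Major urinary proteins are small pheromone carriers that male mouse liver secretes under pulsatile growth hormone. Of 21 genes, 10 had no usable estimate, 2 were below the level filter and 9 were tested, and all 9 were negative, with a median of -1.831. Of these, 5 had an unadjusted p under 0.05 (2.71% of all genes on the lower side), and in 7 the groups did not overlap (11.6%). Without LL-FA replicate 2, 3 had that p and 2 were positive. Mup9 stood at 45.8 and 101 FPKM against 3.94 and 0.636 (log2 -5.02 ± 0.98, unadjusted p = 0.00109), Mup17 at 545 and 1049 against 112 and 3.81, and Mup16 at 106 and 207 against 53.3 and 5.85. Mup6 had 89.6 and 87.7 FPKM against 49.3 and 19.6 (log2 -1.46 ± 0.35), and Mup8 5.19 and 7.89 against 2.21 and 0.634.

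In each of these 5 genes LL-PM2.5 replicate 2 was the lowest library, and so it was for Mup1, at 686 and 891 against 432 and 32.5 FPKM, and for Mup12, at 306 and 383 against 185 and 16. The median of the 9 was -1.011 without that library and -4.278 without LL-PM2.5 replicate 1. Mup3, the most abundant of them, had 8805 and 10202 FPKM against 10333 and 5859 and overlapped, as did Mup21. These genes are near-identical copies, so the split of fragments among them is uncertain, and the values of single members should be read with that limit.

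Genes of the growth hormone pathway did not give one direction beyond single libraries. Of 11 tested, 1 was higher and 3 lower at an unadjusted p under 0.05, with a median of -0.431. Without LL-PM2.5 replicate 2 none had that p, and without LL-FA replicate 2 the median was -0.018. Stat5b, the transcription factor that carries the growth hormone signal in male liver, had 12.4 and 13.3 FPKM against 10.4 and 8.36 (log2 -0.46 ± 0.15). Cish, a feedback inhibitor that STAT5 induces, had 24.9 FPKM in LL-FA replicate 2 and 0.564, 0.918 and 0.399 in the others, and its log2 difference of -4.18 became 0.17 without that library. Onecut1, a hepatocyte transcription factor, had 11.1 FPKM in LL-FA replicate 2 against 2.34, 2.00 and 1.13, with log2 differences of -2.14 and, without it, -0.51.

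Stress and inflammation genes showed small differences. In the unfolded protein and integrated stress response, 6 of 28 tested genes were higher at an unadjusted p under 0.05 and 0 lower (2.12% and 2.71% of all genes). Of the 28, 21 were positive (50.7% of all genes), with a median of 0.333. Herpud1, of the degradation machinery of the endoplasmic reticulum, had 175 and 217 FPKM in LL-FA against 259 and 307 in LL-PM2.5 (log2 0.53 ± 0.15). Ddit3, the CHOP transcription factor, stood at 4.28 and 2.84 against 4.86 and 8.20 FPKM, Dnajb9, a chaperone of the same organelle, at 48.3 and 21.0 against 52.5 and 65.6, and Sesn2, a stress sensor, at 1.6 and 1.34 against 2.30 and 1.99. This list turned on 1 library: without LL-PM2.5 replicate 2, 9 of the 28 were positive, the median was -0.123, and 2 were higher and 1 lower.

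Of 22 tested cytokine, chemokine and NF-kB genes, 2 were higher at an unadjusted p under 0.05, with a median of 0.411 that was 0.042 without LL-PM2.5 replicate 2. They were Nfkbia, the inhibitor that NF-kB induces, at 17.2 and 13.8 against 21.5 and 23.3 FPKM, and Il1b at 0.868 and 0.634 against 1.70 and 1.11. Cxcl1, a neutrophil chemokine, had 3.66 and 1.94 FPKM against 3.08 and 10.6, with a log2 difference of 1.41 that was 0.02 without LL-PM2.5 replicate 2. Acute phase proteins gave 2 lower and 0 higher of 28 tested, Lrg1 at 301 and 376 against 224 and 229 FPKM and Lbp, which binds bacterial lipopolysaccharide, at 24.8 and 28.9 against 23.0 and 17.7. Without LL-PM2.5 replicate 2 no member of that list had an unadjusted p under 0.05 in edgeR. None of 24 tested interferon-response genes had an unadjusted p under 0.05 in edgeR, with log2 fold changes from -0.822 to 0.552.

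Immediate early genes and their phosphatases were split, with 1 of 22 higher and 4 lower at an unadjusted p under 0.05. The median was 0.184, and -0.301 without LL-PM2.5 replicate 2. Dusp6, which switches off ERK, stood at 10.2 and 5.99 against 14.2 and 11.9 FPKM, and Dusp1, which switches off p38 and JNK and is induced by glucocorticoids, at 18.1 and 15.2 against 8.12 and 7.73 (log2 -1.04 ± 0.36). Jun had 5.69 and 9.22 FPKM against 3.80 and 5.41, and Fosl2, its partner in AP-1, 1.41 and 1.51 against 1.07 and 0.950. Of 18 tested growth arrest and p53 targets, 4 were higher and 3 lower at an unadjusted p under 0.05, with a median of 0.255. Without LL-PM2.5 replicate 2, 1 was higher and 1 lower and the median was 0.011. The lower ones were Cdkn1a and Gadd45g, given above, and Phlda3, a p53 target, at 2.90 and 0.925 against 0.603 and 0.861 FPKM (log2 -1.51, and -0.25 without LL-FA replicate 1). Higher were Cdkn1b, the p27 inhibitor, at 7.15 and 5.28 against 8.43 and 9.02 FPKM, Plk2 at 3.64 and 1.85 against 4.68 and 4.68, Trp53inp1 at 12.4 and 6.74 against 14.3 and 11.7, and Sesn2. Of 10 tested cell cycle genes, Ccnd1, cyclin D1, was higher at 5.45 and 4.47 against 7.50 and 12.6 FPKM (log2 1.07 ± 0.34, and 0.48 without LL-PM2.5 replicate 2), and Mcm7, of the replication helicase, lower at 3.35 and 3.96 against 2.83 and 2.84.

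Genes that airborne pollutants are known to induce gave no difference past an unadjusted p of 0.05 in edgeR with all libraries kept. None of the 7 tested targets and partners of the aryl hydrocarbon receptor, the sensor of polycyclic aromatic hydrocarbons, reached it, and their log2 fold changes ran from -0.578 to 0.474. Of the 7, 1 did without LL-PM2.5 replicate 2, on the higher side. Cyp1a1, the receptor's classical target, was below the level filter at 0.376 and 0.532 FPKM in LL-FA against 0.472 and 0.175 in LL-PM2.5. Cyp1b1, Ahrr and Aldh3a1 were below the filter too, so 4 of the 11 listed genes were not tested. Cyp1a2 had 307 and 328 FPKM against 277 and 148 (log2 -0.58 ± 0.27). Of 21 tested genes of the NRF2 antioxidant response none reached that p, with a median of 0.006, and 1 did without LL-FA replicate 1. Mt1, the metallothionein that binds zinc and cadmium, was the highest of these at 12.6 and 20.7 against 30.4 and 48.0 FPKM (log2 1.24 ± 0.60). With 2 libraries a group, differences larger than the SE also missed that p, as for Cyp1a2 and Mt1. Differences of that size could thus go undetected.

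Drug-metabolising P450s gave 1 lower of 24 tested, Cyp2d9, a male-biased steroid hydroxylase, at 1057 and 1188 against 790 and 436 FPKM (log2 -0.89 ± 0.30). Of the 24, 8 were positive, and the median was -0.11. The direction of this list turned on the exposed library kept. With only replicate 1 kept for LL-PM2.5 the median was 0.055 and 16 were positive. With only its replicate 2 kept, the median was -0.359 and 6 were positive. Of 25 tested conjugation enzymes 1 was higher, Sult1c2, at 1.52 and 1.13 against 2.51 and 2.19 FPKM. The sulfotransferase Sult5a1 was lower at 6.28 and 8.48 against 4.77 and 2.57, and the glucuronosyltransferase Ugt2b38 at 16.6 and 20.5 against 4.94 and 9.86. The organic anion carrier Slco1a4 had 10.1 and 3.84 FPKM against 14.8 and 17.3 (log2 1.40 ± 0.40), and the efflux pump Abcg2 57.8 and 43.7 against 44.5 and 28.0, with overlap.

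Retinoid and steroid enzymes of the short-chain dehydrogenase family were found on both sides. Hsd17b6, which oxidises androgens and retinol, had 44.7 and 49.98 FPKM in LL-FA against 128 and 106 in LL-PM2.5 (log2 1.31 ± 0.27), and Rdh16f2, a retinol dehydrogenase, 58.6 and 67.2 against 89.3 and 106 (log2 0.60 ± 0.13). Lower were Dhrs3, which returns retinal to retinol, at 92.4 and 114 against 73.1 and 71.8 FPKM (log2 -0.51 ± 0.11), Dhrs9 at 1.79 and 1.86 against 0.729 and 0.862, and Sdr9c7 at 30.5 and 27.6 against 19.1 and 8.44. Genes of hepatocytes around the central vein gave 3 lower and 0 higher of 20, namely the ammonium carrier Rhbg at 4.02 and 5.38 against 2.71 and 2.34 FPKM, the dicarboxylate carrier Slc13a3 at 6.40 and 7.38 against 5.14 and 3.15, and Sp5, a target of WNT signalling, at 2.09 and 1.78 against 1.24 and 0.962. The median was -0.17. Without LL-PM2.5 replicate 2 the list had 1 lower, 1 higher and a median of -0.005, and without LL-PM2.5 replicate 1 it had 10 lower and 1 higher.

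Other genes with the smallest p and no overlap belong to none of these lists. Higher were Arl4d, a small GTPase, at 11 and 6.82 against 19.5 and 26.5 FPKM (log2 1.34 ± 0.30), Ip6k2, an inositol phosphate kinase, at 7.21 and 8.46 against 12.5 and 20.0, Tbc1d10a, a Rab GTPase activator, at 3.09 and 4.01 against 5.38 and 7.29, Ugcg, the glucosylceramide synthase, at 4.82 and 4.12 against 7.54 and 5.73, and the apoptosis regulator Pawr at 3.45 and 3.74 against 5.29 and 5.02. Lower were Clpx, the unfoldase of a mitochondrial protease that also acts on ALAS1, at 89.4 and 77.7 against 51.9 and 27.8 FPKM (log2 -1.07 ± 0.21), and Nrep at 13.1 and 11.3 against 7.0 and 3.65 (log2 -1.21 ± 0.25). Fpgs, which retains folates in cells, had 68.2 and 79.7 FPKM against 49.9 and 50.3, Fam89a 12.1 and 10.6 against 6.79 and 6.20, Lrfn3 5.94 and 4.43 against 2.84 and 2.41, and Sh3pxd2a, a podosome scaffold, 5.93 and 4.52 against 3.18 and 2.25.

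**Figure D4:**
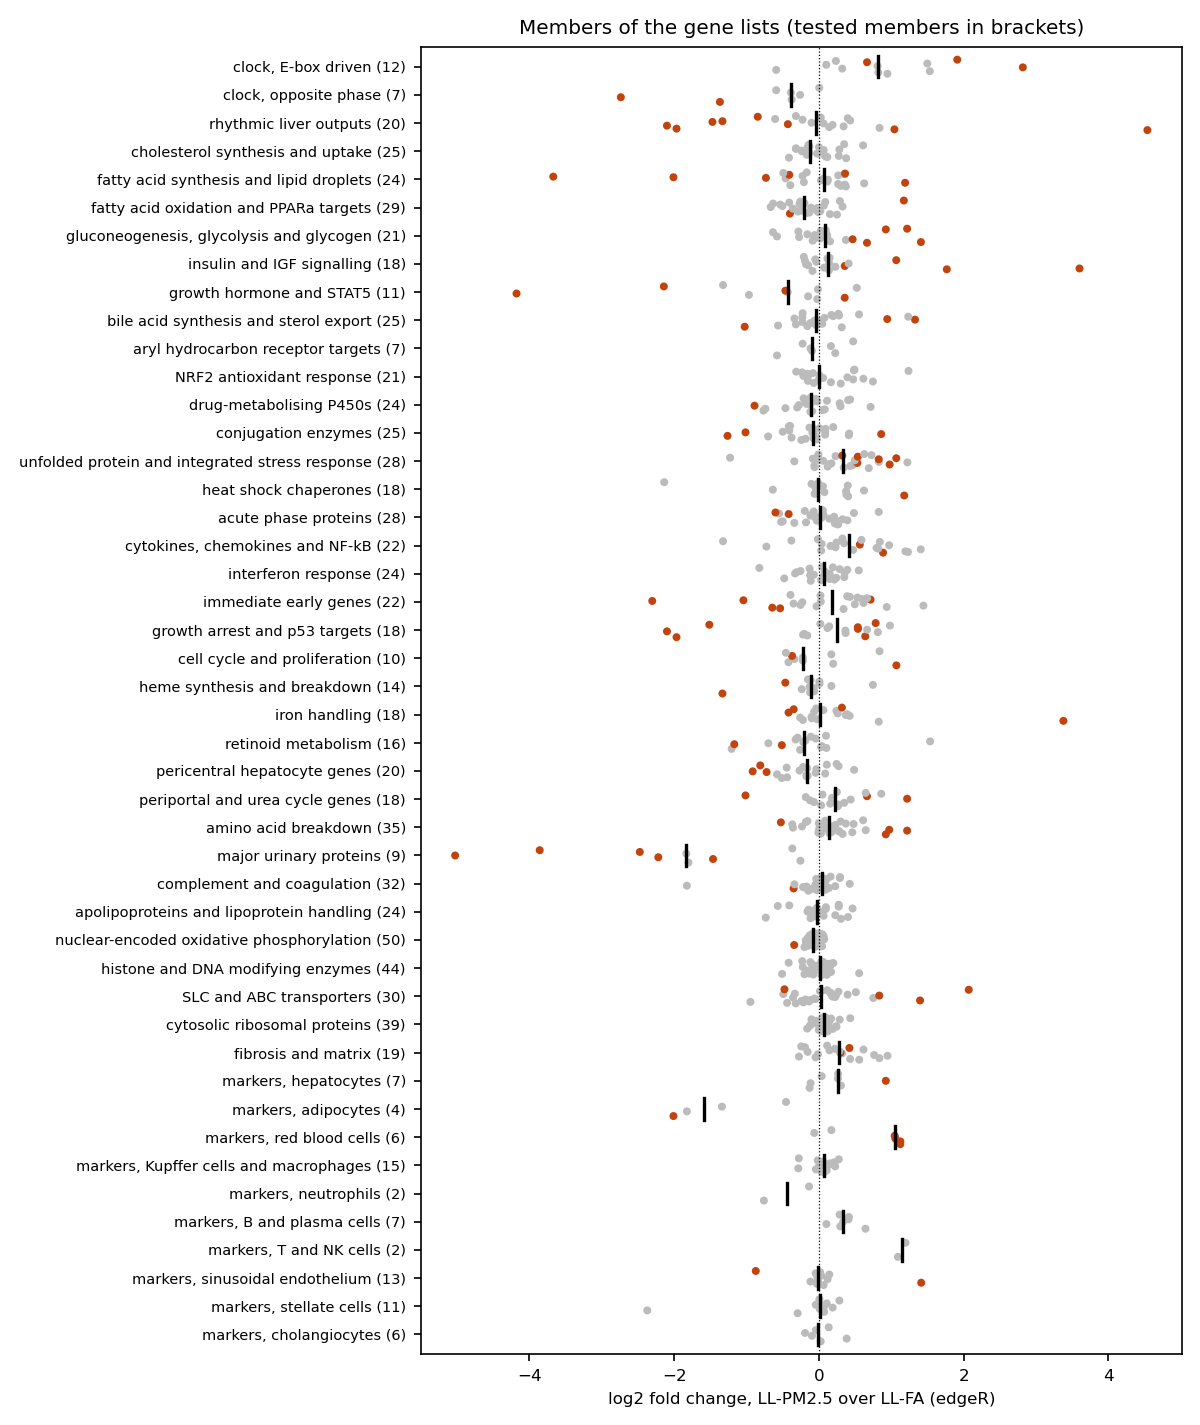
Each point is a tested member of a gene list, placed by its log2 fold change of LL-PM2.5 over LL-FA, in red where the unadjusted edgeR p is under 0.05, and the black bar is the list's median. The E-box clock list has a median of 0.816, the opposite-phase list -0.386 and the major urinary proteins -1.831. Several other lists lie farther from 0 than the opposite-phase list. These are markers of adipocytes (-1.581), T and NK cells (1.144), red blood cells (1.052) and neutrophils (-0.447), growth hormone (-0.431) and cytokines (0.411). The remaining medians lie nearer 0. The muscle and pancreas lists are left out of the plot.

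Markers of the other cells of the liver were compared list by list. None of 15 tested markers of Kupffer cells and macrophages had an unadjusted p under 0.05 in edgeR, with log2 fold changes between -0.284 and 0.275, and their summed level was 326.4 and 476.7 FPKM in LL-FA against 389 and 461.1 in LL-PM2.5. Stellate cell markers summed to 228 and 203.1 against 217.9 and 193 FPKM, and none of 11 had an unadjusted p under 0.05. Of 13 markers of sinusoidal endothelium, Lyve1 was higher at 1.26 and 1.29 against 1.45 and 4.89 FPKM, a log2 difference of 1.41 that was 0.08 without LL-PM2.5 replicate 2, and Wnt2 lower at 2.28 and 2.04 against 1.62 and 0.764, and the sums were 128.2 and 139 against 139.2 and 123.5. All 13 muscle markers were lower at an unadjusted p under 0.05, and their level was high in LL-FA replicate 1 alone, as for Acta1 at 171 and 0.204 against 0.113 and 0.0480 FPKM (log2 difference -1.13 without that library). The other 12 were positive without it, and the median of the list was then 1.551. Cela2a, a pancreatic elastase, had 0.101 and 0.359 FPKM against 0.499 and 71.2, with a log2 difference of 1.21 without LL-PM2.5 replicate 2. All 12 tested pancreatic markers were positive, and without that library 7 were negative and the median was -1.003. The 7 tested B and plasma cell markers were all positive, with a median of 0.336, and 0.677 without LL-PM2.5 replicate 1. Without LL-PM2.5 replicate 2 the median was -0.056 and 2 were positive. Both tested T and NK cell markers were positive, with a median of 1.144 (0.587 without that library), and both tested neutrophil markers negative, with a median of -0.447. None of these 9 lymphocyte and 2 neutrophil markers had an unadjusted p under 0.05 in edgeR.

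The same exposure in the light/dark cycle was set beside these values. There 1240 genes (11%) had an unadjusted p under 0.05 in edgeR and 0 passed the adjusted threshold. LD-FA replicate 1 also held transcripts of other tissues. Its pancreatic acinar markers summed to 4383 FPKM and its muscle markers to 407.3, against 34.86 and 47.41 in LD-FA replicate 2. The light/dark values below include that library. The difference between the PM2.5 effects in the 2 light regimes was tested for every gene, and none passed an adjusted p of 0.05 in edgeR (0% of 11316, 552 or 4.88% at an unadjusted p under 0.05, smallest adjusted p 0.843), while DESeq2 called 33. Dbp, Nr1d2, Arntl, Npas2, Rgs16, Mtss1 and Cdkn1a stood on the same side in both regimes. The log2 fold change of PM2.5 in light/dark was 2.21 for Dbp, 0.58 for Nr1d2, -0.65 for Arntl, -2.52 for Npas2, 2.59 for Rgs16, 1.46 for Mtss1 and -0.86 for Cdkn1a. Cry1 stood at 0.95 there against -0.59 in constant light. The medians of 2 of the clock lists had opposite signs in the regimes, at 0.359 in light/dark and -0.386 in constant light for the opposite-phase genes, and at 0.496 and -0.037 for the rhythmic outputs. Other genes had opposite signs and no overlap in either regime, among them Hamp2, at 3.38 in constant light and -1.16 in light/dark, and Alas1, at -1.33 and 1.93. Hba-a1 stood at 1.12 and -1.73, G6pc at 1.41 and -0.83 and Nrep at -1.21 and 1.38. Igfbp1, at 3.6 in constant light, was -0.33 in light/dark, and the major urinary proteins, at a median of -1.831, were at -0.292.

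**Figure D5:**
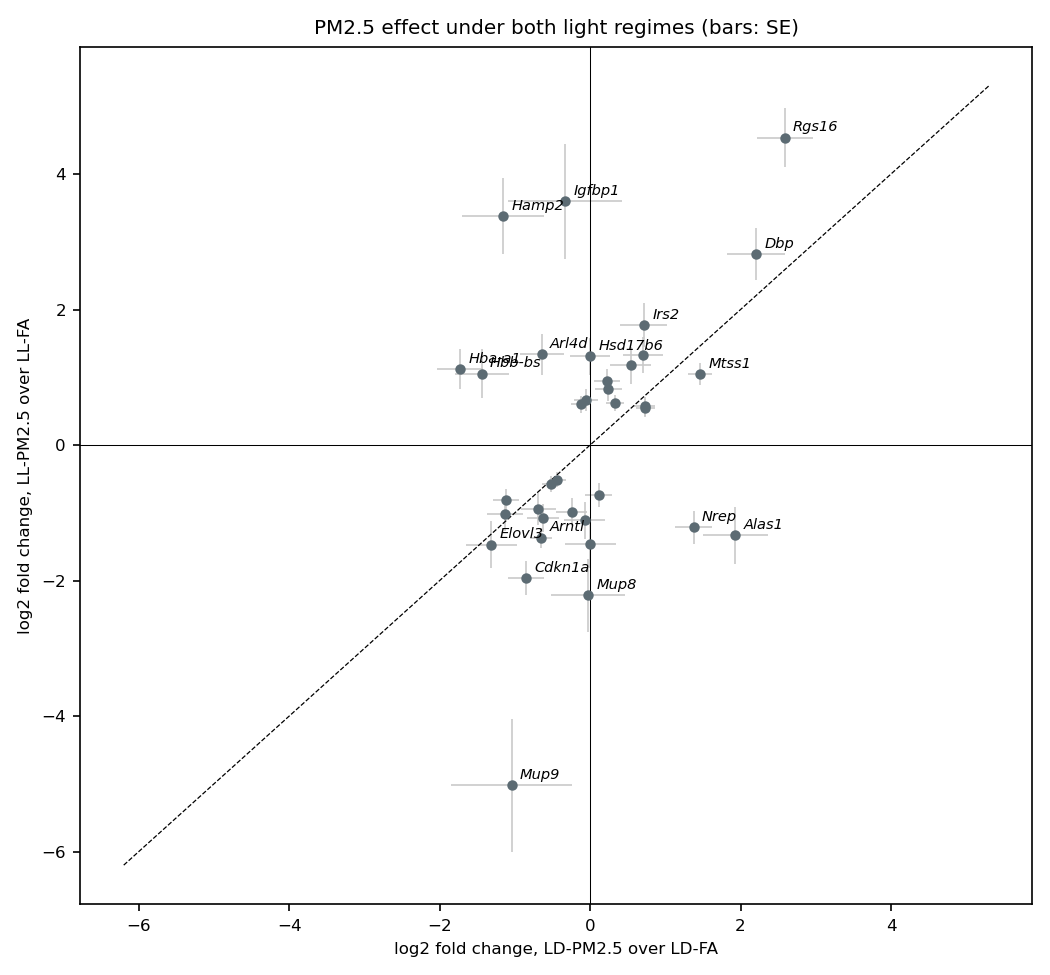
Log2 fold change of PM2.5 over filtered air in light/dark (x axis) and in constant light (y axis) for the 30 genes of smallest p and Alas1, Hba-a1, Hbb-bs and others named in the text, with bars for the SE and a dashed line of equality. Rgs16, Dbp and Mtss1 are positive in both regimes, while Hamp2, Hba-a1 and Hbb-bs are positive only in constant light and Nrep and Alas1 only in light/dark.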

How the data were processed

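Liver RNA-seq libraries, 8 in all, were placed in 4 groups from their labels. STAR, Cufflinks, Cuffdiff and mm10 are named in the submitters' processing notes, while their versions and the annotation were not stated there. Per the file headers, the authors deposited an estimated count of fragments, FPKM and a status for each gene and library. Fragments were whole numbers to within 0.01 in 99.0% of values (97.4% of those above 0) and were rounded for the tests. Of 48432 genes listed, 47 had no usable estimate in at least 1 library (172 entries marked HIDATA and 21 FAIL, among them Alb and 10 Mup genes) and were left out. Symbols were matched for 48051 entries through GENCODE vM21, and 62 symbols with several entries were summed, which left 48323.

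The 11316 genes that reached 1 FPKM in 2 or more libraries were tested with edgeR 4.0.16 in R 4.3.3. The model had 4 group means, TMM scaling and 4 residual degrees of freedom, with prior degrees of freedom of 3.46 and a biological coefficient of variation of 21.4%. All tests were two-sided, p-values were adjusted over all tested genes by the Benjamini-Hochberg method, and the threshold was 0.05. The SE was taken as the size of the log2 fold change over the root of its F statistic. The method was tried on simulated data. FPKM rests on transcript models while the test uses fragments, so a fold change can differ from the ratio of FPKM.

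The members and the 48 gene lists were chosen with earlier results of these data known. No gene passed the adjusted threshold. The genes named are therefore, per direction, the 15 of smallest p whose groups do not overlap and whose mean reaches 5 FPKM in either group, leaving out markers of other tissues and unnamed models. To these come up to 4 members of each list, taken by p. Genes outside the rule were added after their values were seen: Adipoq, Agpat2, Alas2, Cry1, Cyp1a1, Cyp7a1, Dnajb9, Fads2, Fech, Gadd45g, Hamp, Leo1, Mup1, Mup3, Mup12, Mup16, Mup21, Nr1d1, Per1, Per2, Tef and Tubb2a. Promoters are RefSeq's on GRCm38.p6. Alternatives were DESeq2 1.42.0, limma 3.58.1 on log2 FPKM, other scaling, filters and variance priors, a replicate block, a fit of 4 libraries and leaving out libraries. Library pairs within constant light correlated across genes at Pearson r of 0.959 to 0.982, and replicates differed by more than counting noise.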

Additional observations from a re-analysis of the deposited data

Results flagged for a closer look

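For 16 of the genes named above, both PM2.5 libraries lay on one side of both filtered-air libraries in constant light and on the other side in the light/dark cycle. The log2 PM2.5 effect in constant light minus that in light/dark was 4.53 for Hamp2, 2.24 for G6pc, 1.98 for Arl4d and 0.72 for Rdh16f2. For the globin genes it was 2.85 (Hba-a1), 2.68 (Hba-a2), 2.36 (Hbb-bt) and 2.5 (Hbb-bs). It was -3.83 for Onecut1, -3.26 for Alas1, -2.90 for Cidec, -2.59 for Nrep, -1.44 for Fosl2, -1.26 for Sult5a1, -0.92 for Nfil3 and -0.50 for Slc11a2. In edgeR's test of the difference itself the smallest adjusted p among them was 0.843. The 16 genes were picked for opposite directions, and the 4 globin genes come from 1 cell type.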

How the results depend on the processing

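The count of genes called at an adjusted p of 0.05 for PM2.5 in constant light was 0, and 0 as well with median-of-ratios scaling, a pseudocount of 0.1 in limma, only the 4 constant light libraries, and at least 5 FPKM. It was 58 with DESeq2, 1 with limma on log2(FPKM + 1) (Rny3), 1 with a robust variance prior (Rgs16) and 476 of 23030 genes with no filter, 297 of them among the 11316. Of the 476, 140 were higher and 336 lower, and 31 were listed markers of pancreas, muscle or fat. Muscle genes outside the lists, such as Ttn and Myh2, and the adrenal gene Cyp11b1 (log2 -11.14) were among the 476 as well. Leaving out each library in turn gave 0 to 10, with 10 when LL-PM2.5 replicate 1 was left out and 1 when its replicate 2 was. Genes whose PM2.5 effect differed between light regimes numbered 33 with DESeq2, 2 with limma on log2(FPKM + 1), and 0 with median-of-ratios scaling, with a replicate block and with each library left out in turn. Counts for the remaining settings are not given. The cause was not tested. With a replicate block 0 genes were called and 512 had an unadjusted p under 0.05. The labels do not say that a number pairs samples, and the deviations of same-numbered libraries correlated at 0.25 in constant light and 0.33 in light/dark.

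Over 16 settings and 118 genes, 1840 values kept their direction and side of the threshold, 42 passed it and 6 changed sign. No gene passed in the main fit, so no value could lose a call, and the count of 1840 is no measure of stability. Cish, Gadd45g, Mup3 and Mup21 were positive without LL-FA replicate 2. Leaving out libraries, the log2 fold change ran from -5.15 to 0.17 for Cish and -3.48 to 0.07 for Gadd45g. It ran from -0.53 to 0.06 for Mup3 and -0.85 to 0.22 for Mup21. It ran from -0.08 (without LL-PM2.5 replicate 1) to 0.88 for Cyp7a1 and from -0.02 to 2.1 for Lyve1, negative without LL-FA replicate 1 and LL-PM2.5 replicate 2, a setting chosen after seeing the data. That setting called 0 genes and changed the sign of the median of 24 of the 48 lists. Genes at an unadjusted p under 0.05 numbered 255 when LL-PM2.5 replicate 2 was left out and 1214 when its replicate 1 was; with no filter they numbered 1484 of 23030.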
